A study of Mus musculus with 10 samples.

Results

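Integrins are cell surface receptors made of 1 alpha and 1 beta chain, and laminins are basement membrane proteins made of an alpha, a beta and a gamma chain. The rule took every array probe whose gene name in the scanner files was Itga or Itgb with a number or 1 letter, or Lama, Lamb or Lamc with a number, and kept the brightest probe of each gene. Itgam and the integrin binding proteins were left out. It gave 34 genes of the 19504 named on the array, 15 integrin alpha chains, 8 integrin beta chains and 11 laminin chains, from 76 probes. No filter on low values was used, so all 34 entered every test, and 27 of them were well above background in the tumor channel on all 10 arrays.

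The tumors were 5 sarcomatoid carcinomas, as the study's methods name the group, and 5 adenocarcinomas. They came, directly or through a cell line, from C57BL/6 mice in which the MMTV promoter drives Cre, which acts mostly in mammary epithelium. All 5 adenocarcinomas (tumors 105, 131, 470, 17 and 85) were primary mammary tumors of Pik3caH1047R;Trp53R270H;MMTV-Cre mice. The sarcomatoid group held 3 primary mammary tumors (323, 307 and 594) and 2 lung tumors, grown in recipient mice after tail vein injection of cell lines made from tumors 323 and 307. By the study's methods 1 of the tumors that gave a cell line came from a Pik3caH1047R;Trp53R270H;MMTV-Cre mouse and the other from a Pik3caH1047R;MMTV-Cre mouse whose tumor had gained a Trp53R245H mutation, and the labels do not say which was 323 and which 307. Tumor 594, the unpaired one, came by that account from a Trp53R270H;MMTV-Cre mouse. The groups therefore differ in genotype as well as in histology, ages were not given, and each lung tumor descends from 1 cell line. Tests over 5 against 5 tumors treat the lung and mammary tumors of 1 number as separate samples.

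In stratified and glandular epithelium the integrin of Itga6 and Itgb4 anchors the basal cell surface to laminins that hold Lama3 and Lamb3, at a junction called the hemidesmosome. Most other alpha chains pair with Itgb1, and Itgav pairs with several beta chains, and these receptors bind collagens, fibronectin or further laminins. A separate set built on Itgb2, Itgb7 and Itga4 is carried by white blood cells and binds to ligands such as Vcam1 on blood vessels.

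Each array set tumor RNA against a common reference, and a value below is the log2 ratio of tumor over reference in the deposited normalized table. The labels name Cy3 (green) as the tumor dye, but green differed less between arrays than red (mean SD of the log2 signal 0.738 against 0.987), so red was read as the tumor. This direction is likely and not certain, and all signs turn if the label is right. A ratio is relative to that gene's level in the reference, so ratios of different genes do not rank their levels. Well above background were 52.3% to 83.0% of probes per array, and the number of tumors limits the precision. Arrays fell into 3 scan batches by extraction protocol version, of which batch 1 held tumor 323 alone, batch 2 tumors 307, 594, 105 and 470, and batch 3 both lung tumors and tumors 131, 17 and 85. Tumor 470 stood apart from the other 4 adenocarcinomas. For 15 of the 34 genes it lay inside the range of the sarcomatoid carcinomas and outside that of the other adenocarcinomas. No such share was taken over all probes, so the 15 has no baseline. Values without tumor 470 are given beside several of the results that it moves. This tumor was singled out by its values in these data. Leaving out a tumor that lay with the other group can by itself widen a difference, so those values are no independent test.

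The median gene of the family varied more between tumors than the median probe did. The median SD over the 10 tumors was 1.03 for the 34 genes and 0.569 for all 40196 probes. The 34 are the brightest probe of each gene, whereas all probes include dim and further probes of a gene. The larger spread is therefore not shown to belong to the family. The widest was Itga11, a collagen receptor of fibroblasts, with a range of 7.13 log2 units from -1.28 in adenocarcinoma 17 to 5.84 in lung tumor 307. Lamb3 (6.47), Itgb4 (5.36) and Itgb6 (5.12) followed by range, and Lamc3 was the flattest with 0.61. The ratio was high in every tumor for Lama4, the alpha chain of vessel and muscle laminins (3.32 to 6.44), and for Itga8, a receptor for nephronectin (2.25 to 7.05). The reference signal was well above background on 7 of 10 arrays for Lama4 and on 1 for Itga8. The size of the Itga8 ratios is therefore uncertain.

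**Figure D1:**
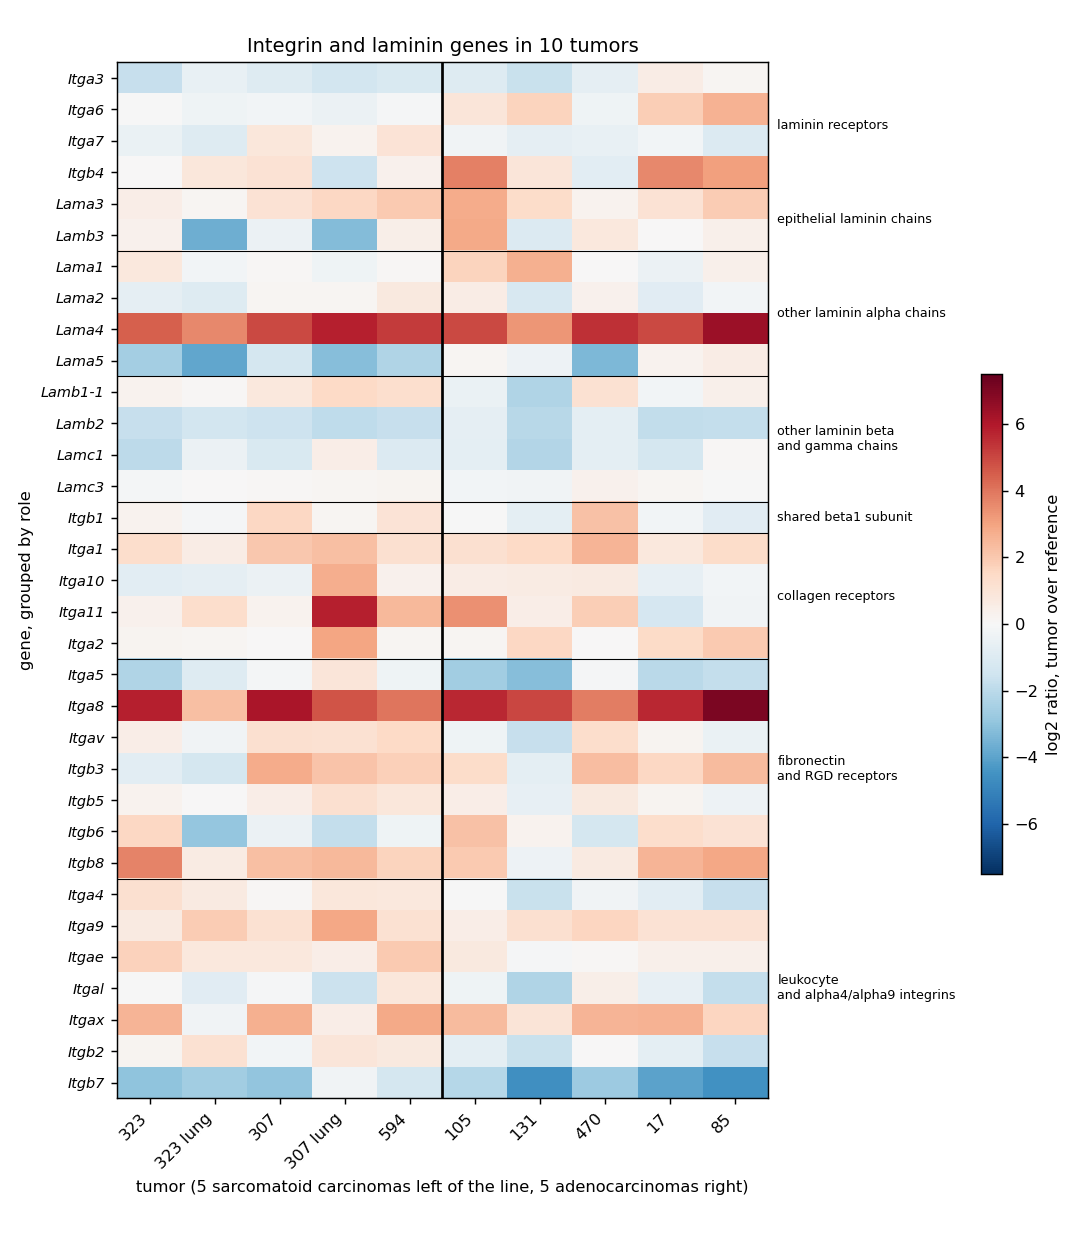
Log2 ratio of tumor over reference for the integrin and laminin genes reported by name (one line of cells per gene, grouped by role) in the 10 tumors (one column each), from blue for low to red for high, with the 5 sarcomatoid carcinomas left of the black line. Lama4 and Itga8 are red in every tumor, Lama5 and Itga6 are lower in the sarcomatoid columns and in adenocarcinoma 470, and Lamb3 is lowest in the 2 lung tumors.

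The first comparison set sarcomatoid carcinomas against adenocarcinomas. The laminin receptor chains Itga6 and Itgb4 and the laminin chain Lama5 had lower means in the sarcomatoid carcinomas, and the white blood cell chains Itga4, Itgb2, Itgb7 and Itgae had higher means. Those 7 of 34 genes (20.6%) had an unadjusted limma p below 0.05, against 9.23% of all probes. By direction 4 were higher, where 4.98% of all probes were, and 3 were lower, where 4.25% of all probes were. No gene of the family passed an adjusted p of 0.05, and neither did any probe of the array (0%). The smallest adjusted p in the family was 0.33. The median log2 difference was 0.04 over the family (0.47 over the 23 integrins and -0.24 over the 11 laminins) and 0.00 over all probes.

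Tumor 470 and the lung tumors bore on that count. Without tumor 470, 12 of the 34 genes (35.3%) had an unadjusted p below 0.05, against 14.2% of all probes. By direction 8 were higher, where 7.46% of all probes were, and 4 lower, where 6.72% of all probes were. In that fit 3 genes passed an adjusted p of 0.05, against 1.54% of all probes. Those 3 were Itga6, Lama5 and Itgb2. Tumor 470 was left out after its values were seen, so these counts show its weight and are no separate test. Without tumor 470 the groups did not overlap for Itga4 and Itgb2, which were higher (3.48% of all probes), and for Itga6 and Lama5, which were lower (2.93% of all probes). Without the 2 lung tumors, 5 genes (14.7%) had an unadjusted p below 0.05, against 7.96% of all probes, 4 of them higher (4.56% of all probes) and 1 lower (3.41% of all probes), and 0 passed the adjusted threshold. They were Itga4, Itgae, Itgb2 and Itga7, higher, and Itga6, lower.

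**Figure D2:**
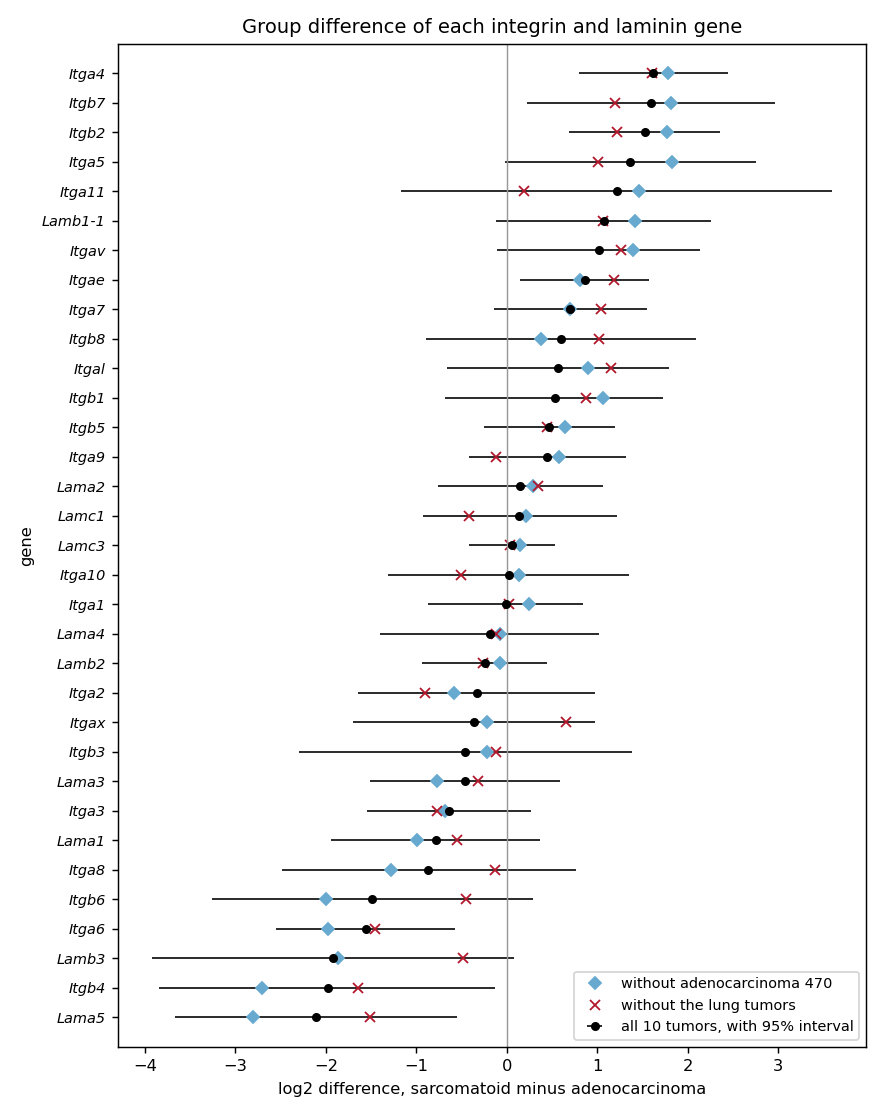
Log2 difference of the means, sarcomatoid minus adenocarcinoma (horizontal axis), for each integrin and laminin gene reported by name (vertical axis, sorted), over all 10 tumors (black points, bars are the 95% interval of limma), without adenocarcinoma 470 (blue diamonds) and without the lung tumors (red crosses). Lama5, Itgb4, Lamb3, Itga6 and Itgb6 lie at the low end and Itga4, Itgb7 and Itgb2 at the high end, and the red crosses of Lamb3 (-0.48) and Itgb6 (-0.45) lie closer to 0 than their black points.

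Among the laminin receptors, Itga6 showed the tightest sarcomatoid values. Its probe lies on chromosome 2 from 71701626 to 71701685 (mm7, the build of the scanner file that gives positions; the files name no exon). In the sarcomatoid carcinomas the ratio was -0.05 in tumor 323, -0.30 in its lung tumor, -0.23 in tumor 307, -0.46 in its lung tumor and -0.08 in tumor 594. In the adenocarcinomas it was 0.92 in tumor 105, 1.69 in 131, -0.32 in 470, 1.82 in 17 and 2.60 in 85. All 5 sarcomatoid carcinomas thus lay just under the reference, as did tumor 470, while the other 4 adenocarcinomas lay above every sarcomatoid value. The means were -0.22 ± 0.17 (SD, n = 5) and 1.34 ± 1.11 (SD, n = 5). The log2 difference was -1.56 (SE 0.45), 2.96-fold lower, with a limma adjusted p of 0.366. Without tumor 470, left out after its values were seen, it was -1.98 (SE 0.33, adjusted p 0.0228). An exact permutation test of the single gene gave p = 0.0397 (two-sided), and p = 0.107 with 1 value per tumor number. The other probes of Itga6 differed by -1.25 and -1.47.

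Itgb4, the partner of Itga6 in hemidesmosomes, has a long inner tail that binds plectin. Its probe lies on chromosome 11 from 116117288 to 116117347 (mm7). The sarcomatoid ratios were 0.04 (323), 0.84 (323 lung), 1.09 (307), -1.57 (307 lung) and 0.31 (594). The adenocarcinoma ratios were 3.79 (105), 0.91 (131), -0.78 (470), 3.62 (17) and 3.10 (85). Tumors 105, 17 and 85 were above all sarcomatoid carcinomas, whereas tumor 131 lay inside their range and tumor 470 within it at the low side. Groups differed by -1.98 (SE 0.85) on the log2 scale, 3.95-fold lower, with a limma adjusted p of 0.51, and -2.71 (SE 0.66, adjusted p 0.0714) without tumor 470. The exact permutation test gave p = 0.0952, and the other probes of Itgb4 differed by -2.17 and -1.11.

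By their brightest probes, the remaining laminin receptor chains did not reach an unadjusted p of 0.05 with all tumors. Itga3, which pairs with Itgb1, differed by -0.64 (95% interval -1.54 to 0.27) and Itga7, a laminin receptor of muscle, by 0.70 (-0.14 to 1.55). The dimmest probe of Itga3 pointed up (0.32).

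Lama5, the alpha chain of many epithelial and vessel laminins, had the largest mean difference of the family in size. Its probe starts on chromosome 2 at 180677286 (mm7). In the sarcomatoid carcinomas the ratio was -2.57 in tumor 323, -3.91 in its lung tumor, -1.34 in tumor 307, -3.20 in its lung tumor and -2.28 in tumor 594. The adenocarcinomas gave 0.16 (105), -0.38 (131), -3.35 (470), 0.28 (17) and 0.54 (85). The group thus split into 4 adenocarcinomas close to the reference and 6 tumors, tumor 470 among them, well under it. The means were -2.66 ± 0.97 (SD, n = 5) and -0.55 ± 1.60 (SD, n = 5). On the log2 scale the difference was -2.11 (SE 0.71), 4.31-fold lower, with a limma adjusted p of 0.413, and -2.81 (SE 0.46, adjusted p 0.0228) without tumor 470. The exact permutation test gave p = 0.0476, and p = 0.143 with 1 value per tumor number.

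Lama3 and Lamb3, the alpha and beta chains of an epithelial laminin that Itga6 and Itgb4 bind, both had a lower mean in the sarcomatoid carcinomas, and neither had an unadjusted p below 0.05. Lama3 differed by -0.46 (95% interval -1.51 to 0.59) and Lamb3 by -1.92 (-3.92 to 0.08). The sarcomatoid ratios of Lama3 were 0.47 (323), 0.13 (323 lung), 1.08 (307), 1.53 (307 lung) and 1.94 (594). Its adenocarcinoma ratios were 2.78 (105), 1.39 (131), 0.25 (470), 1.10 (17) and 1.92 (85), so the groups overlapped over most of their range, and without tumor 470 the difference was -0.77. Among the sarcomatoid carcinomas tumor 594 was the highest, close to adenocarcinoma 85.

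Lamb3 was by far the lowest in the lung tumors among the 10 arrays. Its sarcomatoid ratios were 0.35 (323), -3.65 (323 lung), -0.46 (307), -3.27 (307 lung) and 0.46 (594). The adenocarcinomas gave 2.82 (105), -1.0 (131), 0.77 (470), 0.05 (17) and 0.37 (85). With the lung tumors left out the log2 difference was -0.48, so most of the mean difference of -1.92 came with those 2 arrays, while with scan batch as a term it was -2.60 and the unadjusted p fell below 0.05 (limma adjusted p 0.479).

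The other laminin chains were closer to even. Lamb1-1 (now Lamb1), the beta chain of most tissue laminins, differed by 1.07 (95% interval -0.12 to 2.26), and by 1.42 without tumor 470 (limma adjusted p 0.221). Lamb2 differed by -0.24, Lamc1 by 0.14, Lamc3 by 0.06, Lama2 by 0.15 and Lama4 by -0.19. Lama1, an alpha chain of embryonic basement membranes, was not well above background on any sarcomatoid array and was so on 3 of 5 adenocarcinoma arrays.

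Epithelial marker genes had lower means in the sarcomatoid carcinomas, like Itga6, Itgb4, Itga3 and Lama5 and unlike Itga7 (0.70). Of 12 markers, all 12 had a lower mean in the sarcomatoid carcinomas (median log2 difference -2.32) and 5 had an unadjusted p below 0.05, among them Krt18 (-3.32) and Ovol1 (-2.29). The list mean ranged from -2.21 to 1.78 in the sarcomatoid carcinomas and from 3.06 to 3.54 in the adenocarcinomas other than tumor 470, which was at -1.34. Without tumor 470, 11 of the 12 had an unadjusted p below 0.05 and 3 passed the adjusted threshold (median -3.09). With mammary tumors only, 10 of the 12 had a lower mean (median -1.09) and none had an unadjusted p below 0.05. Itga6 differed by -1.46 there, with an unadjusted p below 0.05. Over all sarcomatoid carcinomas Itga6 ran only from -0.46 to -0.05. Of 8 basal and myoepithelial markers all 8 had a lower mean (median -0.95), and none had an unadjusted p below 0.05. With mammary tumors only, 6 of these 8 had a lower mean and 2 a higher one (median -0.09). In bulk tumors fewer cells of a type and less RNA per cell cannot be told apart, and the part of cell makeup in the results above was not tested.

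**Figure D3:**
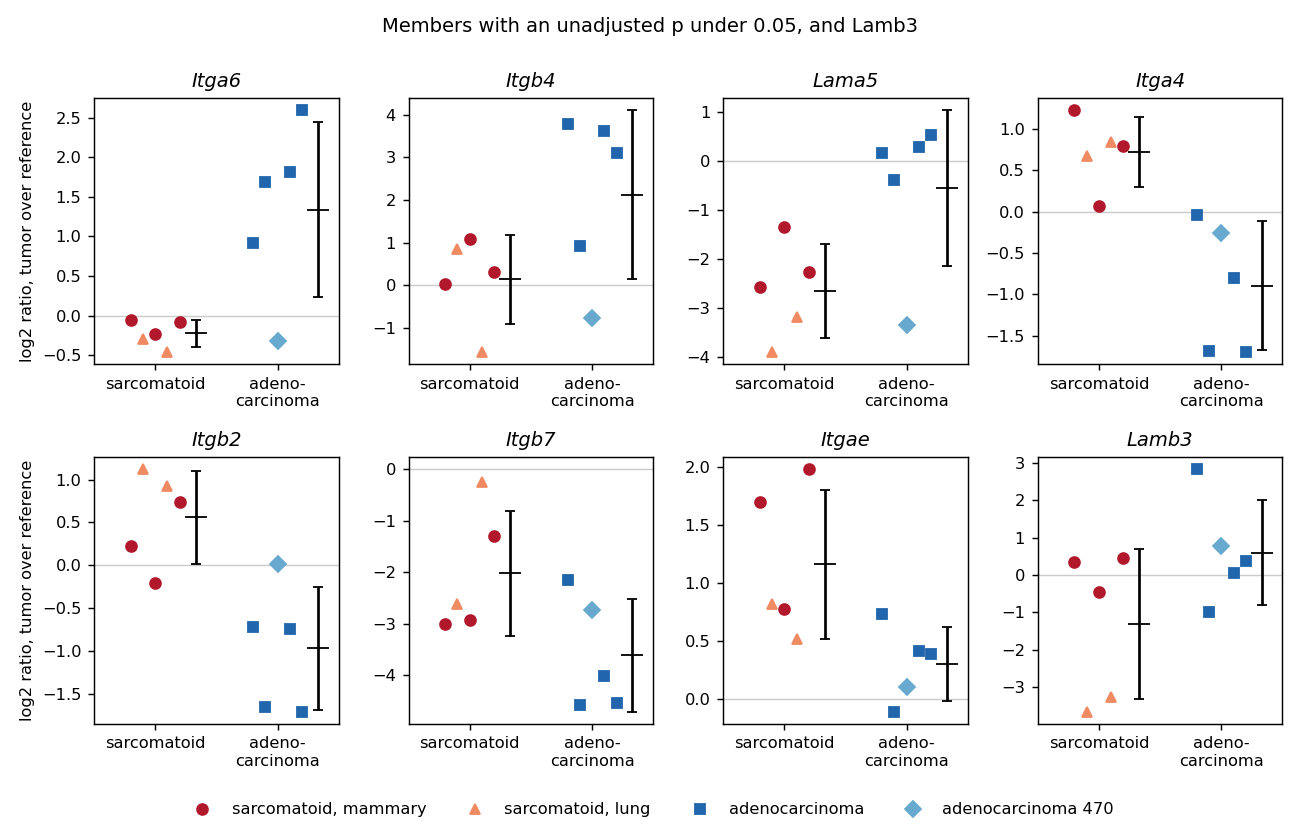
Log2 ratio of tumor over reference (vertical axis, one scale per panel) of the 7 genes with an unadjusted p below 0.05 and of Lamb3, in sarcomatoid and adenocarcinoma tumors, with one point per tumor and the mean with its SD (n = 5) as a black bar. Adenocarcinoma 470 (light diamond) sits with the sarcomatoid tumors for Itga6, Itgb4 and Lama5, the groups do not overlap for Itga4, and the 2 lung tumors (triangles) lie apart for Lamb3.

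Of the 7 chains carried by white blood cells or related to them, 6 had a higher mean in the sarcomatoid carcinomas and 4 had an unadjusted p below 0.05, where 4.98% of all probes were higher (median log2 difference 0.86). Itga4, which pairs with Itgb1 or Itgb7 and binds Vcam1 and fibronectin, was the single gene of the family whose groups did not overlap. Across the array 0.866% of all probes were without overlap and higher and 0.468% were without overlap and lower. Its probe lies on chromosome 2 from 79174249 to 79174308 (mm7). The sarcomatoid ratios were 1.23 (323), 0.67 (323 lung), 0.07 (307), 0.84 (307 lung) and 0.79 (594), all above the reference. The adenocarcinoma ratios were -0.04 (105), -1.69 (131), -0.26 (470), -0.80 (17) and -1.70 (85), all below it. The margin between tumor 307 and tumor 105 was narrow. The means were 0.72 ± 0.42 (SD, n = 5) and -0.90 ± 0.78 (SD, n = 5), a log2 difference of 1.62 (SE 0.38) or 3.08-fold, with a limma adjusted p of 0.33. The exact permutation test gave p = 0.00794, the smallest that 5 against 5 allows, and p = 0.0357 with 1 value per tumor number, the smallest that 3 against 5 allows. Of its 6 probes, 5 pointed up (0.63 to 1.62) and 1 dim probe gave -0.15.

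Itgb2, the beta chain that the integrins of most white blood cells share, came next. The probe is on chromosome 10 from 77219821 to 77219880 (mm7). The ratio was 0.23 in tumor 323, 1.12 in its lung tumor, -0.21 in tumor 307, 0.93 in its lung tumor and 0.74 in tumor 594. In the adenocarcinomas it was -0.72 (105), -1.66 (131), 0.01 (470), -0.75 (17) and -1.71 (85). Only tumor 470 reached into the sarcomatoid range, above tumor 307. Itgb2 differed by a log2 value of 1.53 (SE 0.38), 2.88-fold higher, with a limma adjusted p of 0.33, and 1.77 (SE 0.36, adjusted p 0.0411) without tumor 470. The exact permutation test gave p = 0.0159, and p = 0.0357 with 1 value per tumor number.

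Itgb7, the partner of Itga4 and Itgae on gut-homing lymphocytes, was below the reference in every tumor. The sarcomatoid ratios were -3.01 (323), -2.61 (323 lung), -2.93 (307), -0.25 (307 lung) and -1.29 (594). The adenocarcinoma ratios were -2.16 (105), -4.58 (131), -2.74 (470), -4.01 (17) and -4.54 (85). Tumors 131, 17 and 85 were below every other tumor, and lung tumor 307 and tumor 594 were above. Between groups the log2 difference was 1.59 (SE 0.63) with a limma adjusted p of 0.476 and an exact permutation p of 0.0714.

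Itgae, the chain with which lymphocytes inside epithelia bind Cdh1, differed less. The ratios were 1.70 (323), 0.82 (323 lung), 0.78 (307), 0.52 (307 lung) and 1.98 (594) against 0.73 (105), -0.11 (131), 0.10 (470), 0.41 (17) and 0.39 (85). The groups touched where lung tumor 307 fell below adenocarcinoma 105. Its log2 difference was 0.86 (SE 0.32) with a limma adjusted p of 0.461 and an exact permutation p of 0.0159, or 0.0714 with 1 value per tumor number. Itgal, the alpha chain of the main lymphocyte integrin, differed by 0.57 (95% interval -0.66 to 1.79), Itga9 by 0.45 and Itgax by -0.36.

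Myeloid markers moved with these chains. Of 9 markers all 9 had a higher mean in the sarcomatoid carcinomas (median log2 difference 1.59) and 8 had an unadjusted p below 0.05, for example Tyrobp (1.57), a signalling adaptor, and Csf1r (1.71), the macrophage growth factor receptor. The list mean ranged from 1.67 to 2.46 in the sarcomatoid carcinomas and from -0.21 to 1.77 in the adenocarcinomas, where tumor 470 was the highest. With mammary tumors only, 7 of the 9 had an unadjusted p below 0.05, all higher. Of 10 T and B lymphocyte markers 6 had a higher mean (median 0.09) and none had an unadjusted p below 0.05. With mammary tumors only, 8 of the 10 had a higher mean (median 0.41) and 3 had an unadjusted p below 0.05. The part of myeloid content in the results for these chains was not tested.

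The fibronectin and collagen receptors held no gene whose brightest probe had an unadjusted p below 0.05 over all tumors. A dimmer probe of Itgb8 (1.20) and one of Itgb6 (-1.37, well above background on 1 array) did so. The mean over all probes of Itgb6 (-1.30) did so too. Among the 7 fibronectin and RGD receptor chains, Itga5, the main fibronectin receptor chain, differed by 1.36 (95% interval -0.02 to 2.75) and Itgav by 1.02 (-0.11 to 2.14). Without tumor 470 both were further apart, at 1.83 (limma adjusted p 0.142) and 1.40 (adjusted p 0.167). Fibroblast and mesenchymal markers had a higher mean for 10 of 10 (median 0.74). Of these 1 (10%) had an unadjusted p below 0.05, close to the 9.23% of all probes. Without tumor 470 the median was 1.20 and 4 (40%) were below that p, against 14.2% of all probes. The part of fibroblast content was not tested. Itgb1, which pairs with most alpha chains of the family, differed by 0.53 (-0.68 to 1.73), and its highest ratio among the 10 tumors was that of adenocarcinoma 470 (2.18). Without that tumor Itgb1 differed by 1.06, with an unadjusted p below 0.05 (limma adjusted p 0.217). Itgb6 differed by -1.49 (-3.26 to 0.29), and by -2.0 without tumor 470, where its unadjusted p was below 0.05. Itgb5 differed by 0.47, Itgb8 by 0.60, Itgb3 by -0.46 and Itga8 by -0.87. The 4 collagen receptor chains had differences from -0.33 (Itga2) to 1.22 (Itga11), and the interval of Itga11 ran from -1.17 to 3.60. Itga2b, the platelet integrin chain that the rule leaves out, differed by -0.16.

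For 6 of the 7 genes the difference within scan batch 2, which held tumor 470, was smaller than within batch 3, which held the lung tumors, and Itgae was the exception. With 2 arrays a group in batch 2 and 2 against 3 in batch 3, no test was made. In that order the differences were -0.45 and -2.42 for Itga6, -0.80 and -2.91 for Itgb4, and -0.21 and -3.70 for Lama5. They were 0.59 and 2.15 for Itga4, 0.62 and 2.39 for Itgb2, 0.35 and 2.95 for Itgb7, and 0.97 and 0.45 for Itgae. With scan batch as a term the 7 differences were between -2.11 and 1.77 and kept their signs, and 9 members had an unadjusted p below 0.05, with 3781 of 40196 probes. Itgb4 (-1.95) and Itgae (0.69) were no longer among them, and Lamb3 (-2.60), Itgb6 (-2.13), Itga5 (1.75) and Itga7 (0.79) were.

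Partner genes of the family were measured on the same arrays. Of 16 integrin ligands, 2 were higher and 1 lower at an unadjusted p below 0.05, and 0 passed the adjusted threshold (median log2 difference 0.35). The 3 were Vcam1, the ligand of Itga4 on vessels (2.37), Fn1, fibronectin itself (1.63), and Thbs1, thrombospondin (-1.04). Vcam1 passed an adjusted p of 0.05 without tumor 470 (3.06, limma adjusted p 0.0214). Of 25 focal adhesion adaptors and kinases, Fermt3, the kindlin of blood cells (1.31), and Itgb1bp1, which binds the Itgb1 tail (0.86), were higher and Actn4, an actin cross-linker (-1.05), was lower at an unadjusted p below 0.05. These 3 are 12% of the list, close to the 9.23% of all probes.

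Hemidesmosome partners and basement membrane partners held no gene below an unadjusted p of 0.05 over all tumors. Of the 4 hemidesmosome partners, Dst differed by 1.04, Col17a1, the hemidesmosomal collagen, by -1.49 and Cd151 by 0.16. Among 13 basement membrane partners the smallest p values belonged to Ntn4, a netrin that binds laminin (0.63), Bcam, a receptor for Lama5 (-1.13), and Agrn, agrin (-0.86). Without tumor 470, 4 of the 13 basement membrane partners were higher and 1 was lower at an unadjusted p below 0.05, and 0 passed the adjusted threshold.

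Within the sarcomatoid group, the 2 lung tumors were then compared with the 3 mammary ones. The lung tumors had lower Lamb3, Itgb6 and Itgax and higher Itga9 and Lamc1, and these 5 of 34 genes (14.7%) had an unadjusted limma p below 0.05, against 10.7% of all probes. By direction 2 were higher, where 5.59% of all probes were, and 3 were lower, where 5.1% of all probes were. No gene of the family passed an adjusted p of 0.05, against 0.0249% of all probes. The median log2 difference was -0.21 over the family and 0.03 over all probes. With 2 tumors against 3, the smallest p of an exact permutation test is 0.2. Lung and mammary sarcomatoid tumors were never scanned in 1 batch, and the fit with scan batch as a term rests on the adenocarcinomas.

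The pairs show the same genes within tumor 323 and within tumor 307. Of the 34 genes, 22 had the same sign in both pairs, 14 of them lower and 8 higher in the lung, and 12 had opposite signs. No share of same signs was taken over all probes, so these counts have no baseline. In both pairs the lung tumor was scanned in batch 3 and the mammary tumor in another batch. In both pairs 8 genes (23.5%) differed by over 1 log2 unit in 1 direction, against 8.32% of all probes. The median gene of the family also varied more than the median probe, as given above. Those 8 were Lamb3, Itgb6, Itgax, Lama5 and Itga8, lower in the lung, and Itga5, Itga9 and Lamc1, higher in the lung.

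**Figure D4:**
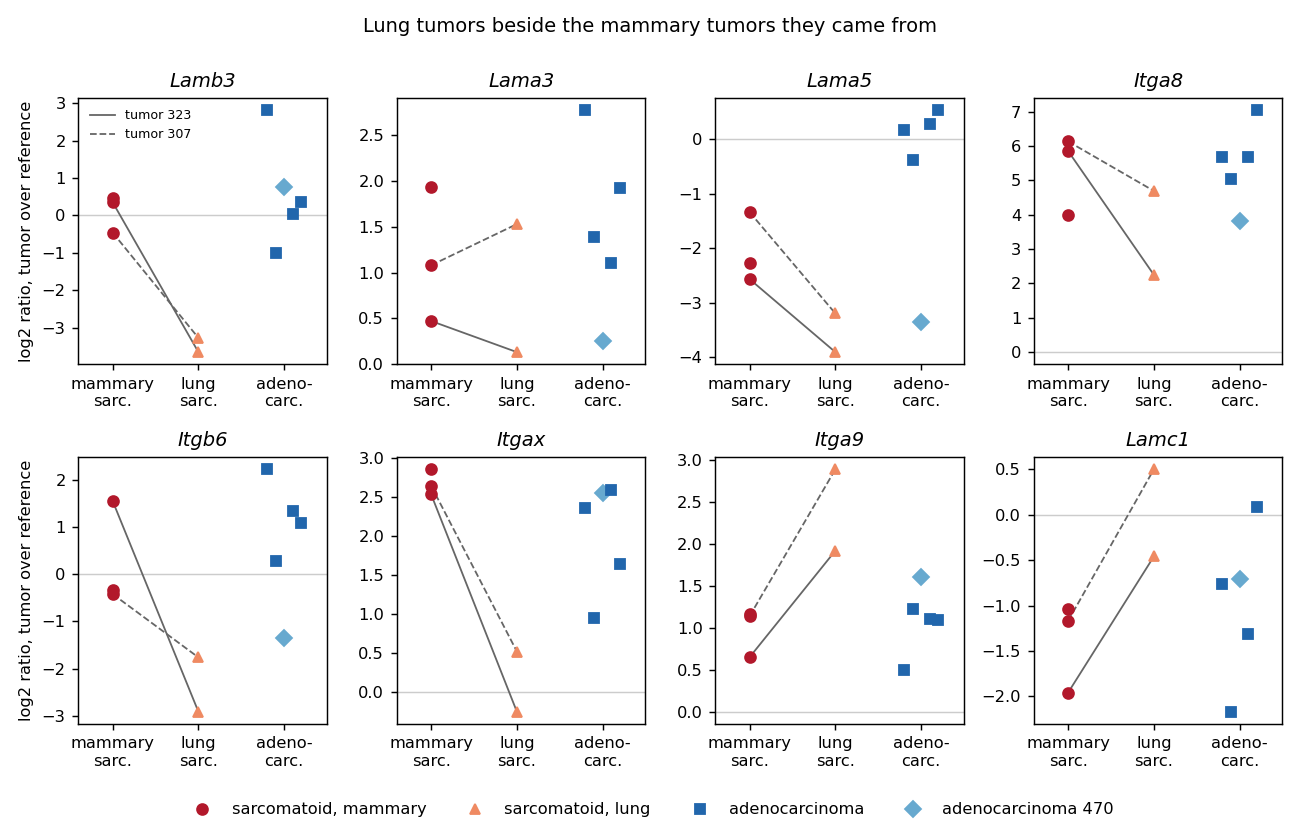
Log2 ratio of tumor over reference (vertical axis, one scale per panel) for Lamb3, Lama3 and 6 further genes, in mammary sarcomatoid tumors, lung sarcomatoid tumors and adenocarcinomas, with one point per tumor and lines joining the mammary and lung tumor of number 323 (solid) and 307 (dashed). Both lines fall for Lamb3, Lama5, Itga8, Itgb6 and Itgax and rise for Itga9 and Lamc1, while they point opposite ways for Lama3.

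Lamb3 was lower in the lung tumor by 4.0 log2 units in pair 323 and by 2.81 in pair 307, with the ratios given above. The probe spans chromosome 1 between 192893546 and 192896077 (mm7). The lung mean was -3.46 and the mammary mean 0.12, a log2 difference of -3.58 with a 95% interval from -5.46 to -1.69 and a limma adjusted p of 0.236. The tumor signal was not well above background in lung tumor 323. From the scanner signals the difference was -1.83 after normexp and loess, where an offset lifts dim spots, and -4.23 from the processed signals, and with scan batch as a term it was -1.47. Lama3 differed by -0.33 (95% interval -1.91 to 1.24), and its pairs pointed opposite ways (-0.34 in 323 and 0.45 in 307). Lama3 too was not well above background in lung tumor 323, so the sign in pair 323 is uncertain.

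Itgb6, the epithelial partner of Itgav that activates latent TGF-beta, was lower in the lung tumors as well. Its probe lies on chromosome 2 from 60529028 to 60529087 (mm7). The ratio was 1.55 in tumor 323 and -2.91 in its lung tumor, -0.42 in tumor 307 and -1.76 in its lung tumor, and -0.33 in tumor 594. Adenocarcinomas gave 2.22 (105), 0.27 (131), -1.34 (470), 1.34 (17) and 1.08 (85), so tumor 470 was the nearest to the lung tumors. The log2 difference was -2.60 (95% interval -4.66 to -0.53) with a limma adjusted p of 0.383, with -0.91 from the scanner signals after normexp and loess and -3.21 from the processed signals. In lung tumor 323 this probe was not well above background. Of its other 2 probes 1 gave -1.52 and the other, well above background on 1 array, gave 0.51.

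Lama5 was lower in the lung by 1.34 in pair 323 and by 1.85 in pair 307. The log2 difference over 2 against 3 tumors was -1.49 (95% interval -3.64 to 0.67). Itga8 was lower by 3.60 and 1.45 in the pairs, with a difference of -1.86 (-3.99 to 0.28). Its reference signal was well above background on 1 array only, as given above.

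Epithelial markers moved with these genes here too. All 12 had a lower mean in the lung tumors (median log2 difference -3.59) and 7 had an unadjusted p below 0.05. The list mean was -1.53 and -2.21 in the lung tumors and 0.90 to 1.78 in the mammary sarcomatoid tumors. All 8 basal and myoepithelial markers had a lower mean (median -1.52), 4 of them at an unadjusted p below 0.05, and so had 7 of 8 endothelial markers (median -0.70), 1 of them at that p. Of 8 lung epithelium markers 5 had a higher mean in the lung tumors (median log2 difference 0.30), and 1, the secretoglobin Scgb3a1 (1.55), had an unadjusted p below 0.05. Sftpa1, a surfactant protein, was not well above background on any array. The part of cell makeup in the lung differences was not tested.

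Among the brightest probes of the family, that of Itgax had the smallest unadjusted p of this comparison. Itgax is the alpha chain known as CD11c on dendritic cells and macrophages. The probe is on chromosome 7 from 124247096 to 124247155 (mm7). The ratio was 2.53 in tumor 323, 2.64 in tumor 307 and 2.85 in tumor 594, against -0.25 in lung tumor 323 and 0.52 in lung tumor 307. The adenocarcinomas lay between 0.95 and 2.59, so both lung tumors were below all 8 mammary tumors. The log2 difference was -2.54 (95% interval -3.66 to -1.41) with a limma adjusted p of 0.183, the other probe gave -1.70, and with scan batch as a term it was -1.89. Its partner Itgb2 pointed the other way (0.77), and so did the median of the 9 myeloid markers (0.30). That list was mixed, with 6 markers higher in the lung tumors and 3 lower, among the latter Adgre1 (-0.95) and Cybb (-1.01). T and B lymphocyte markers had a lower mean in the lung tumors for 9 of 10 genes, 4 of them at an unadjusted p below 0.05, among them Cd3d (-4.15) and Cd8a (-2.47).

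Itga9, which pairs with Itgb1 and binds tenascin and Vcam1, and Lamc1, the gamma chain of most laminins, were the genes with higher lung values at an unadjusted p below 0.05. The Itga9 probe lies on chromosome 9 from 118578986 to 118579045 (mm7). The Itga9 ratio was 0.65 in tumor 323 and 1.92 in its lung tumor, 1.14 in tumor 307 and 2.89 in its lung tumor, and 1.17 in tumor 594. Adenocarcinomas ranged from 0.50 to 1.61, below both lung tumors. The log2 difference was 1.42 (95% interval 0.50 to 2.34) with a limma adjusted p of 0.308. For Lamc1 the ratio was -1.96 and -0.46 in pair 323, -1.17 and 0.50 in pair 307, mammary before lung, and -1.04 in tumor 594. The adenocarcinoma ratios of Lamc1, from -2.17 (131) over -1.31 (17), -0.76 (105) and -0.71 (470) to 0.09 (85), spanned most of that range. Lung minus mammary, the log2 difference was 1.41 (95% interval 0.07 to 2.74) with a limma adjusted p of 0.45.

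Lung tumor 307 was high for 3 of the 4 collagen receptor chains, which lung tumor 323 was not. In pair 307 the lung tumor exceeded the mammary tumor by 5.56 for Itga11, 3.18 for Itga10 and 2.93 for Itga2. In pair 323 these were 0.99, 0.08 and -0.06. The other chain, Itga1, differed by 0.23 in pair 307 and -0.74 in pair 323. Its brightest probe gave a lung difference of -0.09, and its other probes gave -0.30, -0.09 and 1.93. The last of these, the dimmest, had an unadjusted limma p of 0.000129, smaller than that of the brightest Itgax probe. Itgb4 also split the pairs, with 0.80 in pair 323 and -2.66 in pair 307, and Itgb8 did so with -3.14 and 0.18. The lung differences of Itga11 (2.57, 95% interval -0.64 to 5.78) and Itgb4 (-0.85, -3.62 to 1.92) therefore average unlike tumors. Itga2 was well above background on 5 of 10 arrays, and mammary tumor 307 was not among them. For Itgb8 the brightest probe gave a lung difference of -1.05, and its other probes gave 1.18, 0.60 and 0.58.

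Promoter sequences, from RefSeq on build GRCm38.p6, are shown for the genes that differed by over 1 log2 unit in both pairs, since these members differed alike in both pairs. Of those 8 genes, 7 had a promoter in the table. The motif searched is CAGGTG on either strand (CACCTG on the other), an E-box that repressors of the Snail and Zeb families are known to bind. It was held by 20.2% of all promoters, and by 8 of the 24 promoters of the 21 members found in the table. Of the 7 genes 4 held it, 3 that were lower in the lung tumors (Lamb3, Itgb6 and Lama5) and 1 that was higher (Itga9), and Itga5, Itga8 and Itgax did not hold it in this window. Each stretch runs 5′ to 3′ along the gene, with the motif in capitals.
Lamb3, chr1:193302210-193302269, plus strand: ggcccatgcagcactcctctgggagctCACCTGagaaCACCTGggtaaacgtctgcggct
Itgb6, chr2:60673721-60673780, minus strand: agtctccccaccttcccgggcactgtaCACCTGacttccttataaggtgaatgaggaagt
Lama5, chr2:180226013-180226072, minus strand: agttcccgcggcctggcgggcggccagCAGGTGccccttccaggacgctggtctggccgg
Itga9, chr9:118711610-118711669, plus strand: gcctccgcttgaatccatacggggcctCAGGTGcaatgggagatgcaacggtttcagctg
In Lamb3 the motif occurs with its first base 6 bases before the annotated start and again at base 5 of the transcript. It begins 60 bases before the start in Itgb6, 186 before in Lama5 (and once more at 246 before) and 55 before in Itga9 (and once more at 87 before). The other motifs searched were TGTGGT, a Runx motif, and GAGGAAGT, an Ets motif. The Runx motif was held by 16.8% of all promoters and by 3 of the 24 member promoters (Itga3, Itga4 and Itgax). The Ets motif was held by 3.2% of all promoters and by 4 of the 24 (Itga11, Itgav, Itgb6 and Itgb7). These matches describe letters only.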

How the data were processed

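RNA of 10 mouse tumors was measured on 2-colour Agilent mouse arrays, 1 array per tumor. The authors deposited scanner files with spot intensity in both channels, read by extraction protocol versions 10.7.3.1, 11.0.1.1 and 11.5.1.1, and a normalized table of log2 ratios, for which their methods name limma without steps. Each deposited column matched its own array's log2 red over green (r 0.841 to 0.924) better than any other array's (at most 0.741). Rows of a probe were averaged, and 40196 of 41174 probes were in the table. These ratios were fitted with limma 3.58.1 (R 4.3.3) over all 10 arrays with no covariate beside group, two-sided, with Benjamini-Hochberg adjustment over all probes and a threshold of 0.05. Lung and mammary sarcomatoid tumors were compared in a fit of 3 groups. The fit was tested on simulated data. Exact permutation tests of single genes used scipy 1.17.1.

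Full values were given for genes with an unadjusted p below 0.05 in a comparison or without overlap, for Lama3, Lamb3, Itga6 and Itgb4, and, of each partner list, for the 3 genes with the smallest p. A gene that the rule takes is counted among the members and is otherwise not reported here. Other genes given by value were chosen after their values were seen. Members, lists and alternatives were chosen with earlier results of these data known. Alternatives were scanner signals (normexp with offset 50 and loess, or processed signals), quantile or median scaling, a filter on dim probes, scan batch, slide or tumor number in the model, the mean of a gene's probes, leaving out each array or the lung tumors, and 1 value per tumor number.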

Additional observations from a re-analysis of the deposited data

Results flagged for a closer look

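For 13 genes of the family and 4 marker lists, each group of 5 tumors was searched for a tumor far from the rest, by its gap to the nearest tumor over the range of the group. Of 34 such groups 2 stood out, where about 1 in 20 does so by chance (1.7 of 34). Both were adenocarcinoma 470. Lama5 had a log2 ratio of -3.35 there, and the other 4 adenocarcinomas lay from -0.38 to 0.54. The epithelial marker list had a mean of -1.34 there, and the others lay from 3.06 to 3.54. The 2 are measured on the same array and are not independent.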

How the results depend on the processing

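Of the differences of 13 named genes between sarcomatoid carcinomas and adenocarcinomas, the 7 with an unadjusted p below 0.05 kept their direction under every alternative, and the adjusted threshold was passed only by Itga6 (-1.98), Itgb2 (1.77) and Lama5 (-2.81) without adenocarcinoma replicate 3 (tumor 470). The count of members at an unadjusted p below 0.05 was 5 to 12 when arrays were left out in turn (12 without tumor 470) and 11 with slide as a random block. Members past the adjusted threshold numbered 0 to 3 when arrays were left out. Over all probes, leaving out arrays gave 2808 to 5702 at an unadjusted and 0 to 618 at an adjusted p below 0.05 (618 without tumor 470), and 1 value per tumor number gave 2 at the adjusted one. Signs turned for genes near 0: Itgax (-0.36 over all arrays) was 0.12 without lung tumor 323, 0.66 with mammary tumors only and 0.30 within scan batch 2. Lamc1 (0.14) was -0.19 without lung tumor 307, -0.16 without adenocarcinoma 131, -0.42 with mammary tumors only and -0.37 within scan batch 2. Itga9 (0.45) was -0.12 with mammary tumors only, and Lama3 (-0.46) was 0.00 within scan batch 2.

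For lung against mammary tumors the member count of 5 was 3 from the scanner signals with loess, 8 with scan batch as a term and 10 with tumor number as a fixed replicate block over the 2 pairs (where 5336 of 40196 probes had an unadjusted p below 0.05, against 4294 without the block), and 0 members passed the adjusted threshold under any setting. Leaving out arrays gave 4 to 7 members. Over all probes the adjusted count of 10 was 2 with loess, 3 from processed signals, 22 after quantile scaling, 6 after median centring, 0 with scan batch, 0 with the replicate block, and 0 to 84 when arrays were left out (84 without tumor 470, 0 without mammary tumor 323, mammary tumor 307 or adenocarcinoma 17). The unadjusted count was 2589 with scan batch and 3010 to 4612 when arrays were left out. Signs turned for Itga4 (0.06), at -0.03 after quantile scaling, -0.20 over all its probes, -0.26 without mammary tumor 307 and -0.03 without lung tumor 307. Lama3 (-0.33) was 0.37 without lung tumor 323, 0.05 without tumor 594 and 0.05 with the replicate block. Without lung tumor 307, Itgb4 (-0.85) was 0.36 and Itgb7 (0.98) was -0.20. When arrays were left out in turn, these differences ran from -0.65 to 0.12 (Itgax) and -0.19 to 0.43 (Lamc1) between sarcomatoid carcinomas and adenocarcinomas. Between lung and mammary tumors they ran from -0.26 to 0.32 (Itga4), -2.05 to 0.36 (Itgb4), -0.20 to 2.16 (Itgb7) and -1.03 to 0.37 (Lama3). The causes were not tested. Where 1 lung array was left out the other was assumed to vary like the other groups.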
